A study of Rattus norvegicus with 12 samples.

Results

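The elastic fibre and microfibril genes of the rat heart were described here by their transcript levels at 2 postnatal ages. The members are the genes named Eln, Fbn1, Fbn2, Fbln1, Fbln2, Fbln5, Mfap2, Mfap4, Mfap5 and Emilin1. They were matched by name, from a list drawn up with earlier results of these data known, and 9 of these 10 names were found among the 16898 genes of the deposited table. Mfap4 was not analysed here. All of these 9 reached the mean of 1 FPKM needed for the test, as did 13117 genes in total. FPKM divides the reads of a gene by its length and by the size of the library, so levels of different genes can be compared per length.

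The study took heart tissue from Sprague Dawley rats, an outbred laboratory strain, on postnatal day 0 and later in the postnatal period, and the labels name no treatment. Of 12 samples, 6 are input RNA (3 for each age) and 6 are RNA enriched with an antibody for N6-methyladenosine, a methyl mark on RNA. The values below come from the 6 input libraries, and the pull-down samples were not analysed here. The older group is day 7 in the labels and day 10 in the column headers of the table, and is called older hearts. The labels do not say which part of the heart was taken, whether animals were pooled, or whether replicates came from separate animals, so p-values rest on the spread among these libraries, and that spread may be technical.

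Elastic fibres let large vessels, heart valves and the heart wall recoil after stretch. Each fibre has a core of cross-linked elastin that is laid down on a scaffold of microfibrils built from fibrillins. Fibulins, microfibril-associated glycoproteins and EMILINs join the core to the scaffold, and microfibrils also hold latent growth factors of the TGF-beta and BMP families. In the heart these proteins come mainly from fibroblasts, smooth muscle, valve cells and endothelium. The roles given below are known from human and mouse.

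Library totals ran from 13489816 to 16297533 reads. Cardiomyocyte markers were high in every library, with a summed level of 17595 to 19410 FPKM at day 0 and 18834 to 20691.5 FPKM in older hearts. Day 0 replicate 3 stood apart. All 4 markers of lung epithelium were present in it, at 39.9 FPKM in sum, and were listed at 0 in the other 5 libraries. The fast skeletal muscle gene Mylpf was at 30.6 FPKM in it and at most 0.655 FPKM elsewhere. Lung is rich in elastic fibres, so results without that library are also given for Eln, Fbn1, Fbn2, Fbln1, Fbln2 and Mfap5. They are given too for the partner genes Lox, Ltbp4, Mmp2 and Ctsl.

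In older hearts Fbn1, Fbln1 and Mfap5 rose and Fbn2 fell, while Eln, Fbln2, Fbln5, Mfap2 and Emilin1 did not pass the test. Thus 3 of 9 members were called higher, where 3.52% of all tested genes were, and 1 of 9 was called lower, where 5.73% were. The test was limma on log2(FPKM + 1) over all tested genes, with Benjamini-Hochberg adjustment at 0.05. Over the whole table it called 462 genes higher and 752 lower, and centring each library on its median gene turned this split to 617 and 464. The median log2 fold change of the members was 0.28, beside -0.11 for all tested genes. That median is the value of Eln, which turned to -0.27 without day 0 replicate 2, so it rests on that library. Log2 fold changes subtract day 0 from older hearts on the log2(FPKM + 1) scale, which understates the change of low genes. Libraries of the 2 ages did not overlap in 3 members that were higher (12.2% of tested genes) and 1 that was lower (20.3%), or in 32.5% of tested genes in either direction. In the authors' deposited table the same 3 members are higher and the same 1 is lower at an adjusted p under 0.05, where 6.26% of its genes are higher and 5.53% lower (11.8% together). The authors' deposited table gives a log2 fold change of 3.51 for Mfap5, 1.79 for Fbln1, 0.81 for Fbn1 and -1.04 for Fbn2.

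**Figure D1:**
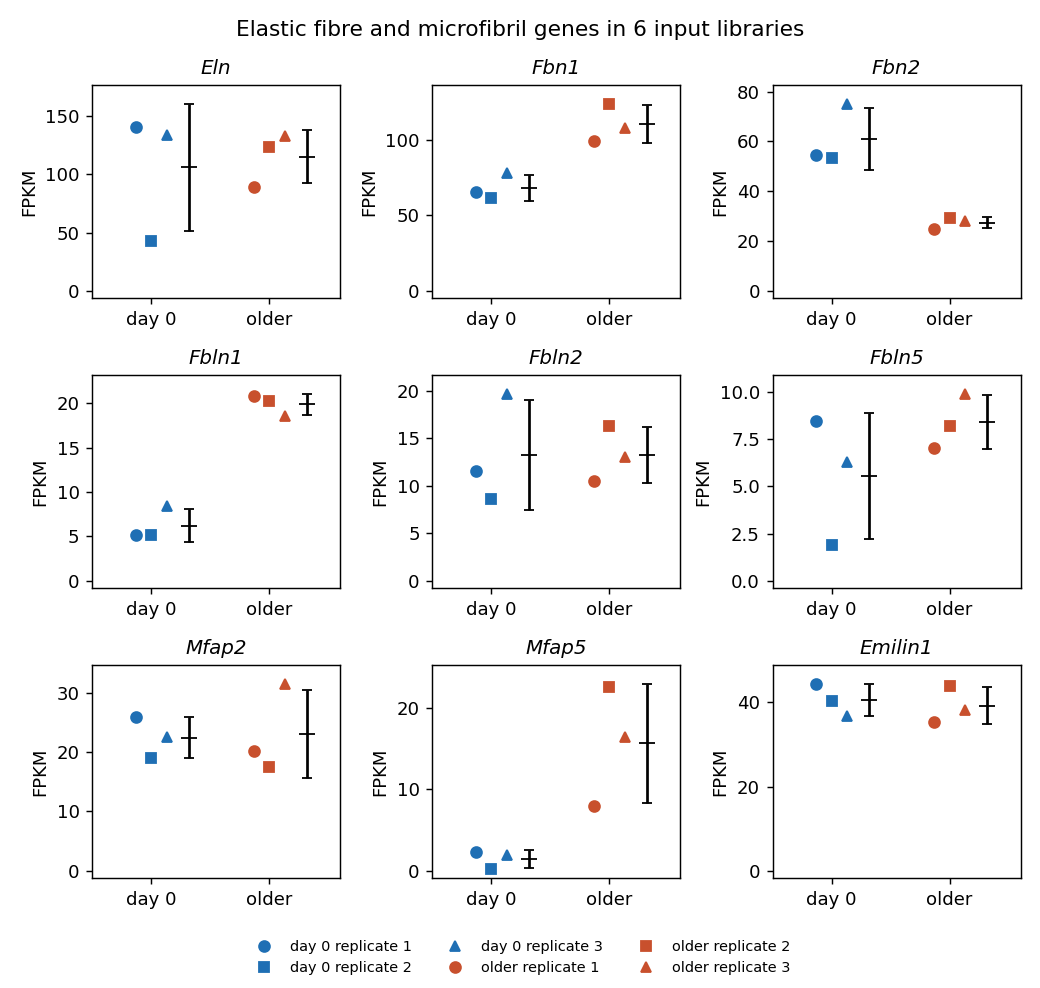
FPKM of the 9 members in each input library (vertical axes, starting near 0), by age. Symbols stand for single libraries, and the bars beside them are the mean and SD of 3 libraries. The ages are apart in Fbn1, Fbn2, Fbln1 and Mfap5 and overlap in the other 5 genes, and day 0 replicate 2 lies far below the other day 0 libraries in Eln and Fbln5.

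**Figure D2:**
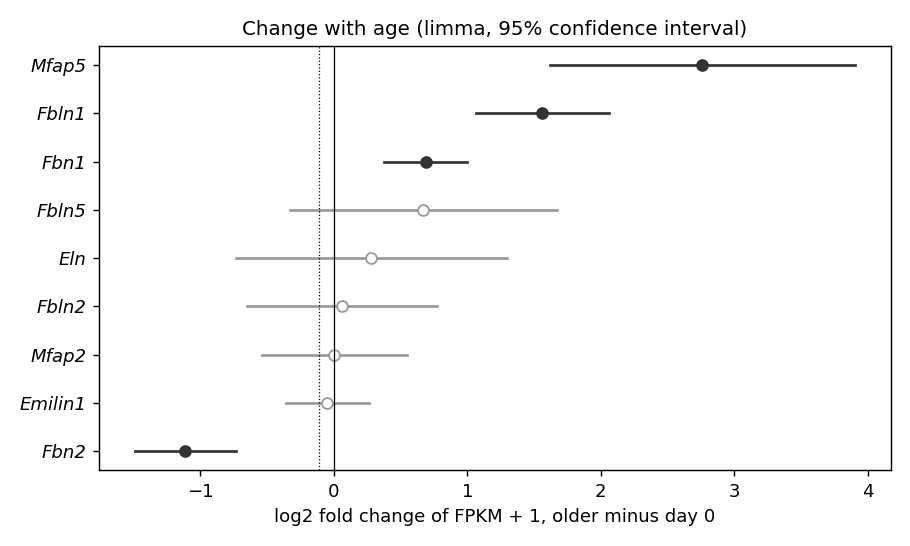
Log2 fold change of FPKM + 1 (horizontal axis, older minus day 0) with its 95% confidence interval from limma for each member. Filled points passed the threshold and open points did not, and the dotted line is the median of all tested genes at -0.11. Mfap5 lies at 2.76 and Fbn2 at -1.11.

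Eln encodes tropoelastin, the soluble unit that is cross-linked into the elastic core. It was the most abundant member by mean level, above 96.1% of tested genes. Its level was 141, 42.8 and 134 FPKM in the day 0 libraries and 89.5, 123 and 133 FPKM in the older libraries. The ages overlapped, and day 0 replicate 2 was the lowest of all 6. That low value rests on 1961 reads, against 6997 and 7422 in the other day 0 libraries. The means were 106 ± 54.8 and 115 ± 22.9 FPKM (SD, n = 3), and the log2 fold change was 0.28 ± 0.43 (SE; limma adjusted p = 0.726). The 95% confidence interval of the log2 fold change ran from -0.73 to 1.30, so a change of 2-fold in the upward direction is within it. Without day 0 replicate 2 the direction turned, to -0.27 (limma adjusted p = 0.437). Without day 0 replicate 3, the library with lung markers, it was 0.54 (limma adjusted p = 0.526).

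Both fibrillin genes changed, in opposite directions. Fbn1 encodes fibrillin-1, the main microfibril protein after birth, whose mutation causes Marfan syndrome in humans. Fbn1 stood at 65.1, 61.7 and 77.7 FPKM at day 0 and at 98.97, 124 and 108 FPKM in older hearts. All older libraries were above all day 0 libraries. The means were 68.2 ± 8.44 and 110.4 ± 12.7 FPKM (SD, n = 3), and the log2 fold change was 0.69 ± 0.13 (SE; limma adjusted p = 0.0214). The call held without day 0 replicate 3 (0.78, limma adjusted p = 0.0205). It was lost with any other of the 6 libraries left out, with limma adjusted p from 0.0517 without older replicate 1 to 0.0830 without older replicate 2, while the log2 fold change stayed between 0.60 and 0.76. It was also lost without the mean-variance trend in limma (adjusted p = 0.0769).

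Fbn2 encodes fibrillin-2, a microfibril protein made mostly in the embryo and fetus. Fbn2 stood at 54.5, 53.3 and 75.2 FPKM at day 0 and at 24.8, 29.2 and 28.2 FPKM in older hearts. The lowest day 0 library was well above the highest older one. The means were 60.98 ± 12.3 and 27.4 ± 2.30 FPKM (SD, n = 3), a ratio of means of 0.449. The log2 fold change was -1.11 ± 0.16 (SE; limma adjusted p = 0.00832). Day 0 replicate 3, the library with lung markers, was the highest, and without it the log2 fold change was -0.95 (limma adjusted p = 0.0118). The call held with each of the 6 libraries left out in turn, with limma adjusted p of at most 0.0482.

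The balance of the fibrillins within a library does not depend on how libraries are scaled. At day 0 the ratio of Fbn1 to Fbn2 FPKM was 1.20, 1.16 and 1.03, and in older hearts it was 3.99, 4.25 and 3.84. Near-equal levels at day 0 were thus followed by about 4 times as much Fbn1 as Fbn2 in each older library. On the log2(FPKM + 1) scale the ratio differed by 1.80, with 0.17 ± 0.11 at day 0 and 1.97 ± 0.08 later (SD, n = 3; two-sided exact permutation p = 0.1, the smallest that 3 against 3 libraries can give). The summed level of both genes was 115 to 153 FPKM at day 0 and 124 to 153 FPKM in older hearts, so the ages overlapped in the sum. Fbn1 made up 52.99% ± 1.90 (SD, n = 3) of that sum at day 0 and 80.1% ± 0.822 (SD, n = 3) later. Without day 0 replicate 3, the library with lung markers, the log2 ratio differed by 1.74.

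The sequences just before the starts of Fbn1, Fbn2 and Mfap5 are shown because these microfibril genes passed the test and have an entry in the RefSeq table, with the fibrillins moving in opposite directions. They are the 250 bases upstream of the RefSeq gene start in the rat build GRCr8, taken from a table in which 6 of the 10 member names were matched. They lie at chr3:133203391-133203640 for Fbn1 (minus strand), chr18:53901993-53902242 for Fbn2 (minus strand) and chr4:157399669-157399918 for Mfap5 (plus strand). Each is written 5′ to 3′ along the gene's strand, with CpG dinucleotides in capitals.
Fbn1: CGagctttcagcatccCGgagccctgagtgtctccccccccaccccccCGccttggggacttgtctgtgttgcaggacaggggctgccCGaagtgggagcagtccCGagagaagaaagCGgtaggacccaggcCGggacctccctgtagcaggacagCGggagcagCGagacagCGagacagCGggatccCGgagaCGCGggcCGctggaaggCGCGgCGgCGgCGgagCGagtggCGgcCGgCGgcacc
Fbn2: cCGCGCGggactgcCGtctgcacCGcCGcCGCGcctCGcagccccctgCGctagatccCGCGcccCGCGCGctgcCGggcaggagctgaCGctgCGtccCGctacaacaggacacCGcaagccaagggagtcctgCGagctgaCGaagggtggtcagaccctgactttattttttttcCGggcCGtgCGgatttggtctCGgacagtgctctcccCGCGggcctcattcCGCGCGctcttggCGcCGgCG
Mfap5: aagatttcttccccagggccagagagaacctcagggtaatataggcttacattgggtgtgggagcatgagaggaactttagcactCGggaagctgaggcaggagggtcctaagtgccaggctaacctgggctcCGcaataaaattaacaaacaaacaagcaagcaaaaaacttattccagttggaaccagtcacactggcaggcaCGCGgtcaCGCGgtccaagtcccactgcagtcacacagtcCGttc
The windows of the fibrillin genes held 24 CpG for Fbn1 and 34 for Fbn2, whereas that of Mfap5 held 7, beside a median of 6 over 27457 such windows of all genes. On both strands the letters TATAAA (in 13.1% of all windows), GGGCGG (32.4%) and TGANTCA (6.36%) were in none of these 3, and CCAAT (34.3%) was in that of Mfap5 once. None of these motifs contains another. Only the match of letters in this window was examined.

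**Figure D3:**
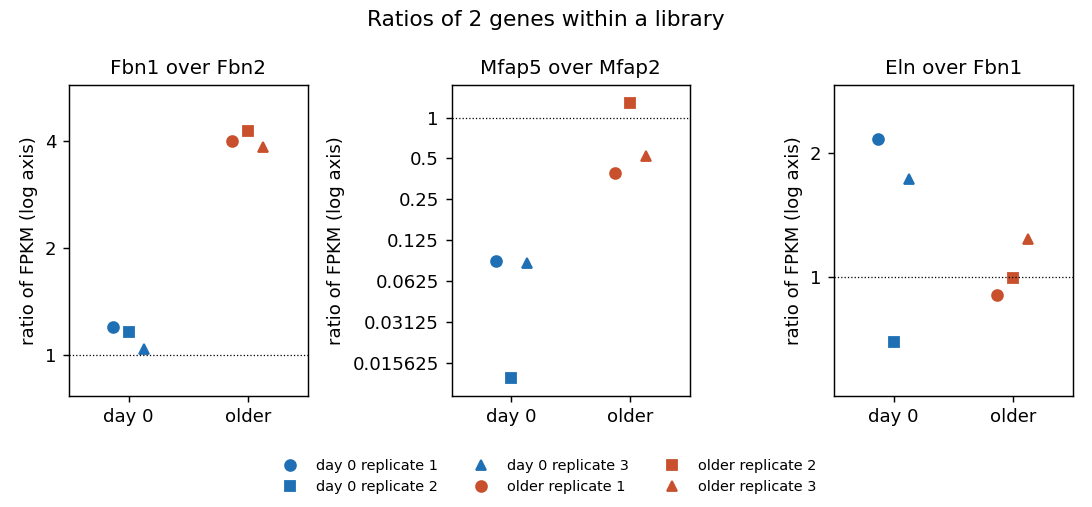
Ratio of the FPKM of 2 genes within each input library (vertical axes, log scale), by age, with 1 symbol per library. Fbn1 over Fbn2 lies between 1.03 and 1.20 at day 0 and between 3.84 and 4.25 in older hearts, Mfap5 over Mfap2 is higher in all older libraries, and Eln over Fbn1 overlaps between ages.

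The ratio of Eln to Fbn1, the core against the main scaffold, was 2.17, 0.694 and 1.73 at day 0 and 0.904, 0.995 and 1.23 in older hearts. The ages overlapped, with day 0 replicate 2 the lowest of all. The log2 ratio differed by -0.41 between older hearts and day 0 (two-sided exact permutation p = 0.5). Without day 0 replicate 2 the difference was -0.89, and without day 0 replicate 1 it was -0.08.

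Among the fibulins, calcium-binding glycoproteins that link elastin, fibrillins and basement membranes, Fbln1 rose. Fbln1 encodes fibulin-1, which binds fibronectin and elastin and is abundant in heart valves. It stood at 5.13, 5.13 and 8.39 FPKM at day 0 and at 20.8, 20.3 and 18.6 FPKM in older hearts. The older libraries were close together and all above the day 0 libraries. The means were 6.22 ± 1.88 and 19.9 ± 1.19 FPKM (SD, n = 3), a ratio of means of 3.20. The log2 fold change was 1.56 ± 0.21 (SE; limma adjusted p = 0.00673). The call held with each of the 6 libraries left out in turn, with limma adjusted p of at most 0.0496. Without day 0 replicate 3 the log2 fold change was 1.77 (limma adjusted p = 0.00539).

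Fbln2 and Fbln5 did not pass. Fbln2 encodes fibulin-2, found in valves and vessel walls, and stood at 11.5, 8.57 and 19.7 FPKM at day 0 and at 10.5, 16.3 and 13.05 FPKM in older hearts. The day 0 libraries enclosed the older ones, and the log2 fold change was 0.06 (95% confidence interval -0.65 to 0.77, limma adjusted p = 0.924). Its highest value was in day 0 replicate 3, and without that library the log2 fold change was 0.36 (limma adjusted p = 0.378). Fbln5 encodes fibulin-5, which binds tropoelastin and cell-surface integrins and is needed to assemble elastic fibres. It stood at 8.45, 1.92 and 6.30 FPKM at day 0 and at 7.06, 8.23 and 9.91 FPKM in older hearts. As for Eln, day 0 replicate 2 was far below the rest, on 61 reads against 291 and 242. The log2 fold change of Fbln5 was 0.67 (95% confidence interval -0.33 to 1.67, limma adjusted p = 0.373), and it was 0.17 without day 0 replicate 2. Of the summed FPKM of the 3 fibulins, Fbln1 made up 20.4% to 32.9% at day 0 and 44.7% to 54.3% in older hearts.

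Mfap5 had the highest log2 fold change of the members. It encodes MAGP-2, a small glycoprotein that binds fibrillins and is made by fibroblasts of the adventitia and fascia. It stood at 2.28, 0.231 and 1.91 FPKM at day 0 and at 7.93, 22.5 and 16.4 FPKM in older hearts. These values rest on 32, 3 and 30 reads at day 0 and on 121, 348 and 237 reads in older hearts. The 3 reads of day 0 replicate 2 give an exact Poisson 95% interval of 0.0477 to 0.676 FPKM, which covers counting error only. All older libraries were above all day 0 libraries, but the older ones spread over a factor of 2.84. The means were 1.47 ± 1.09 and 15.6 ± 7.31 FPKM (SD, n = 3), and the log2 fold change was 2.76 ± 0.49 (SE; limma adjusted p = 0.0168). The call was lost without day 0 replicate 2 (2.32, limma adjusted p = 0.0537), older replicate 2 (2.45, limma adjusted p = 0.0812) or older replicate 3 (2.67, limma adjusted p = 0.0793). It held without day 0 replicate 3 (2.94, limma adjusted p = 0.0382).

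Its relative Mfap2 encodes MAGP-1, the small microfibril-associated glycoprotein present on most microfibrils. Mfap2 stood at 25.8, 18.998 and 22.5 FPKM at day 0 and at 20.1, 17.5 and 31.5 FPKM in older hearts. The older libraries held both the lowest and the highest value, and the log2 fold change was 0.003 (95% confidence interval -0.54 to 0.55, limma adjusted p = 0.996). Within a library the ratio of Mfap5 to Mfap2 was 0.0882, 0.0122 and 0.0851 at day 0 and 0.394, 1.29 and 0.521 in older hearts. The ages did not overlap (difference of 2.76 in the log2 ratio, two-sided exact permutation p = 0.1, the smallest that 3 against 3 libraries can give). Of the summed level of both, Mfap5 was 5.72% ± 3.91 (SD, n = 3) at day 0 and 39.6% ± 14.7 (SD, n = 3) later.

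Emilin1 encodes a glycoprotein at the border of the elastin core and the microfibrils, which also limits TGF-beta processing. It had the smallest spread of the members at day 0, with a coefficient of variation of 9.44%. Emilin1 stood at 44.4, 40.4 and 36.8 FPKM at day 0 and at 35.3, 43.9 and 38.2 FPKM in older hearts. The ages overlapped throughout, with a log2 fold change of -0.05 (95% confidence interval -0.36 to 0.26, limma adjusted p = 0.851). That interval excludes a 2-fold change in either direction. The sign of the change turned after centring on the median gene (0.0701) and after quantile normalization (0.0583).

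By mean level the order at day 0 was Eln, Fbn1, Fbn2, Emilin1, Mfap2, Fbln2, Fbln1, Fbln5 and Mfap5. In older hearts it was Eln, Fbn1, Emilin1, Fbn2, Mfap2, Fbln1, Mfap5, Fbln2 and Fbln5. Neighbours in this order often lay within each other's spread, as Eln and Fbn1 did in older hearts at 115 ± 22.9 and 110.4 ± 12.7 FPKM (SD, n = 3). All 9 members together summed to 233 to 383 FPKM at day 0 and to 315 to 405 FPKM in older hearts. Fbn2 took 15.2% to 22.9% of that sum at day 0 and 7.10% to 7.87% in older hearts.

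The day 0 libraries differed among themselves more than the older ones in several members. Day 0 replicate 2 was the lowest day 0 library in 7 of 9 members and the highest in none, whereas it was the lowest in 29.4% of all tested genes. Relative to the mean of the other day 0 libraries it held 31.1% of their Eln, 26.0% of their Fbln5 and 11.04% of their Mfap5 level, but 86.4% of Fbn1 and 99.5% of Emilin1. The median of all tested genes was 100.3% by the same measure. Genes of other lists spread too, with Lox at 52.0%, Tagln at 40.5%, Col1a2 at 36.0%, Myh11 at 65.1%, Acta2 at 77.9% and Dcn at 85.5%. Day 0 replicate 3, with its lung markers, is in that mean. It was the highest day 0 library for Lox, Tagln and Col1a2, at 193%, 195% and 250% of the mean of the others. For Eln, Fbln5 and Mfap5 it was at 146%, 122% and 153% of a mean that includes the low replicate 2. In these 3 members it was below day 0 replicate 1, at 134 against 141, 6.30 against 8.45 and 1.91 against 2.28 FPKM. The coefficient of variation of Eln was 51.7% at day 0 and 19.9% in older hearts, and that of Fbln5 59.9% and 17.1%. Among the older libraries replicate 1 was the lowest in 7 of 9 members, where it was the lowest in 37.9% of tested genes. The cause of these low values was not tested.

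**Figure D4:**
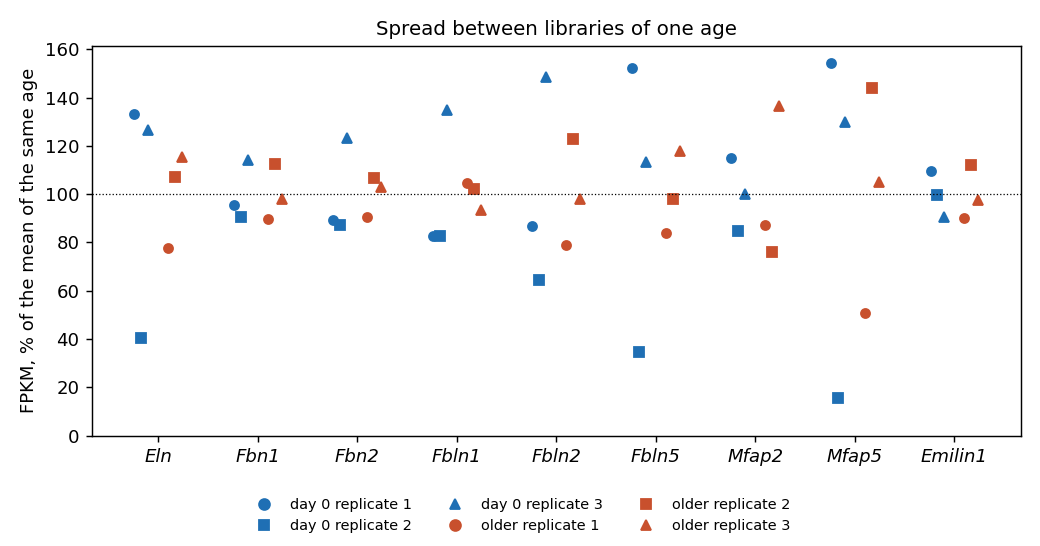
FPKM of each member in each input library as a percentage of the mean of the same age (vertical axis), with day 0 in blue and older hearts in orange. Day 0 replicate 2 (blue squares) lies below 45% in Eln, Fbln5 and Mfap5, while it lies near 100% in Emilin1.

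Genes whose values over the 6 libraries were most like those of Eln, Fbn1 and Fbn2 were sought among 8324 named genes whose mean reached 5 FPKM. The measure was the root mean square distance between log2(FPKM + 1) values, each centred on its own mean. Closest to Eln were Hagh (0.20), Nr0b2 (0.20) and Tex264 (0.22), against a median of 0.69 over all genes compared. Like Eln, all 3 had their lowest value in day 0 replicate 2, at 6.07, 1.33 and 3.70 FPKM. How much of their likeness to Eln rests on that library was not tested. Closest to Fbn1 were Ehd2 (0.04), Tshz2 (0.06) and Tollip (0.07), against a median of 0.50. Closest to Fbn2 were Fhl1 (0.06), Flnc (0.08) and Acaca (0.10), against a median of 0.59. Fhl1 and Flnc encode proteins of striated muscle, Flnc being filamin C. Their lower levels in older hearts follow from the choice of genes near Fbn2.

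The wider pathway was covered by 8 lists of partner genes, with 56 tested genes, of which 6 were called higher and 5 lower. That is 19.6%, beside 9.26% of all tested genes, and the lists' median log2 fold change was 0.07. The enzymes that cross-link elastin gave no call. Of 6 tested genes (the 5 lysyl oxidases and the copper transporter gene Atp7a) none passed, with a median of 0.32. Lox, the main lysyl oxidase, stood at 13.3, 9.07 and 21.6 FPKM at day 0 and at 15.7, 15.6 and 18.9 FPKM in older hearts. The older values lay within the range of the day 0 values (log2 fold change 0.25, limma adjusted p = 0.625), and the sign turned without day 0 replicate 2 (-0.0240).

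Of the 4 latent TGF-beta binding proteins, relatives of the fibrillins, Ltbp4 was called higher (list median 0.14). Ltbp4 helps fibulin-5 to deposit elastin. It stood at 44.5, 38.9 and 58.6 FPKM at day 0 and at 88.9, 97.99 and 95.8 FPKM in older hearts, with no overlap (log2 fold change 0.998, SE 0.158, limma adjusted p = 0.0114). The call was lost in 4 of 6 cases with 1 library left out, with limma adjusted p of at most 0.0622. It held without day 0 replicate 3, the library with lung markers (1.16, limma adjusted p = 0.00586). Of 6 tested genes among the other fibulins, hemicentins and EMILIN relatives none passed (median -0.05). Efemp2, which encodes fibulin-4 and brings lysyl oxidase to tropoelastin, stood at 6.35, 7.78 and 8.04 FPKM at day 0 and at 3.53, 5.09 and 3.81 FPKM in older hearts. The ages did not overlap, yet the difference did not pass (-0.71, limma adjusted p = 0.0956).

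The ADAMTS and ADAMTSL list, secreted proteins that act on or bind microfibrils, had 1 of 8 genes higher and 2 lower (median 0.13). Adamtsl4, which binds fibrillin-1 and furthers its deposition, was higher (1.45, limma adjusted p = 0.0209). Adamtsl5 (-1.37) and Adamts17 (-0.81) were lower, with limma adjusted p of 0.0345 and 0.0367. Leaving out 1 library at a time, Adamtsl4 and Adamtsl5 each passed in 1 of 6 cases and Adamts17 in none, with limma adjusted p of at most 0.124. Of 8 tested genes among elastin-degrading proteases and their inhibitors, Ctsl (1.098) and Mmp2 (0.78) were higher and none lower (median 0.42). Mmp2 encodes a gelatinase and stood at 32.7, 31.2 and 44.04 FPKM at day 0 and at 60.04, 61.2 and 63.6 FPKM in older hearts. Mmp2 and Ctsl, a lysosomal cysteine protease, both had a limma adjusted p of 0.021, and each was called in 1 of 6 cases with 1 library left out. For both that case was without day 0 replicate 3, the library with lung markers. There Mmp2 was at 0.93 and Ctsl at 1.34 (limma adjusted p = 0.00761 and 0.00730).

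Ligands that microfibrils hold in the matrix were lower where they were called, in 2 of 9 tested genes (median -0.95). Bmp7, a BMP ligand whose prodomain binds fibrillins, stood at 14.5, 16.6 and 8.39 FPKM at day 0 and at 0.840, 1.72 and 2.53 FPKM in older hearts. The ages were far apart (-2.40, SE 0.35, limma adjusted p = 0.0086, and 0.0502 and 0.0516 without day 0 replicate 1 or 2). Tgfb2, stored in a latent form bound to Ltbp proteins, stood at 13.6, 19.4 and 30.6 FPKM at day 0 and at 7.09, 6.66 and 5.55 FPKM in older hearts. It fell by 1.51 on the log2 scale (limma adjusted p = 0.0201), a call that was lost without day 0 replicate 2 or any 1 older library, with limma adjusted p from 0.0745 to 0.0837. Of 9 tested integrins and elastin receptor genes none passed (median -0.41). Among 6 tested matrix partners Dcn (1.63) and Bgn (0.57) were higher and Vcan (-1.18) was lower (median 0.25; limma adjusted p = 0.00154, 0.0403 and 0.00220). Dcn and Vcan passed with each library left out in turn, and Bgn in none of these 6 cases. Vcan encodes versican, a proteoglycan that binds fibrillins and is known from young, growing tissue.

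**Figure D5:**
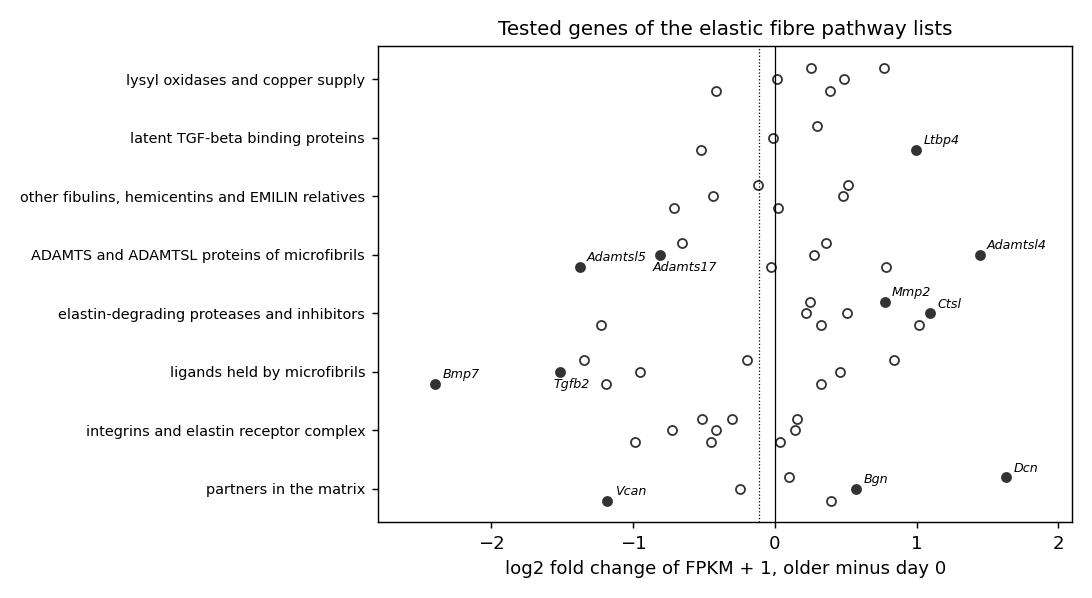
Log2 fold change of FPKM + 1 (horizontal axis, older minus day 0) of each of the 56 tested genes in the 8 partner lists, 1 list per row. Filled, named points passed the threshold and open points did not. The dotted line is the median of all tested genes at -0.11, and Bmp7 (-2.40) and Dcn (1.63) lie at the ends.

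Some markers of fibroblasts and of smooth muscle passed the test, and others of the same lists did not. The 9 fibroblast markers summed to 501 to 797 FPKM at day 0 and to 1064 to 1157 FPKM in older hearts, and 5 of 9 were called higher, namely Dpt (2.40), Dcn (1.63), Lum (1.47), Pdgfra (1.25) and Col1a1 (0.83). The other 4 did not pass, with Col1a2 at 0.60, Ddr2 at -0.03, Gsn at -0.38 and Tcf21 at -0.39. Dpt, Dcn and Pdgfra passed with each of the 6 libraries left out in turn, Lum in 2 of these 6 cases and Col1a1 in 1. In bulk tissue more cells of a type and more RNA per cell cannot be told apart. The 7 smooth muscle markers summed to 717 to 768 FPKM at day 0 and to 239 to 283 FPKM in older hearts. Most of that sum was Myl9, at 473 to 570 FPKM at day 0 and 134 to 164 FPKM later. Of the 7, 3 were called lower, namely Cnn1 (-2.91), Myl9 (-1.74) and Acta2 (-1.68), each also with every library left out in turn. The other 4 did not pass, with Tagln at -0.75, Lmod1 at -0.17, Myh11 at 0.27 and Smtn at 0.43. Of 6 tested endothelial markers 2 were higher (Cdh5 and Cldn5), and of 6 pericyte markers 1 was higher (Rgs5). Of 7 cardiomyocyte markers 1 was higher (Myh6) and 1 lower (Actc1), and of 4 epicardial, 4 macrophage, 3 red cell and 1 cartilage and valve cushion marker tested none passed. With 1 library left out at a time Actc1 passed in 6 of 6 cases, Cdh5 in 4, Rgs5 and Myh6 in 2 and Cldn5 in 1. Of 2 lung and 3 fast skeletal muscle markers tested none passed. The 2 lung markers and Mylpf stood almost only in day 0 replicate 3. A test between the ages could not call such a pattern, so its outcome says nothing on other tissue in that library. The adipocyte list had 1 tested gene, Cidea, which was higher (and passed in 1 of 6 cases with 1 library left out), and the thymocyte list had none tested. The part of any of these in the results for the members was not tested.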

How the data were processed

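Transcript levels came from the 6 input libraries of 12 samples, 3 at each age. The authors deposited FPKM values, 1 column per library, beside their own comparison of the ages (log2 fold change, raw p-value, adjusted p-value). HISAT2, HOMER 4.10 and the build rn5 appear in the submitters' processing notes, without their roles. What counted the reads, with which annotation and whether by strand, is not given in the sources used here, so values of genes that overlap an antisense gene are uncertain. OD columns were read as day 0, and 10D columns as the older group, since the labels leave no other age.

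FPKM steps gave whole reads for 100% of 16898 genes (relative tolerance 1e-12), and from them library totals and gene lengths of 962 to 9891 bases for the members. Without molecular identifiers PCR copies are counted too, so intervals from reads cover counting error only.

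limma 3.58.1 in R 4.3.3 (lmFit, eBayes with a mean-variance trend, Benjamini-Hochberg at 0.05) was fitted to log2(FPKM + 1) of 13117 genes whose mean reached 1 FPKM, and 3781 were left out. On simulated reads of the comparison of older with day 0 hearts (13136 genes fitted) it called 30 of 98 genes changed 2-fold and 96 of 99 changed 4-fold, with 9 false calls in all. Every simulated gene had the same spread between libraries beyond counting error, a chosen value that was not estimated from these libraries. These counts therefore do not give the power or the false calls for the members, some of which spread widely at day 0. Ratios of 2 genes were tested with a two-sided exact permutation test over libraries.

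The members and the gene lists were chosen with earlier results of these data known. Named genes were the members, up to 4 called genes per partner list with Lox, Ltbp4 and Efemp2, up to 2 called genes per marker list, and the 3 genes nearest to Eln, Fbn1 and Fbn2. Names of clone or locus style were left out of that last search. Mylpf, Tagln, Col1a1, Col1a2, Lum, Pdgfra, Acta2, Ddr2, Gsn, Tcf21, Lmod1, Myh11, Smtn and Atp7a were named after their values were seen. Of 69 partner symbols 62 were found. The alternatives were other pseudocounts (0.1 and 0.5), filters (none, 5 FPKM) and scalings, no trend, voom on the recovered reads, a replicate block and leaving out each library. Promoter sequences are RefSeq's, build GRCr8, a later build than rn5.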

Additional observations from a re-analysis of the deposited data

How the results depend on the processing

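Fbln1 and Fbn2 kept their calls under all 15 alternatives. Fbn1 kept its call in 8 and Mfap5 in 11, and Eln, Fbln2, Fbln5, Mfap2 and Emilin1 passed in none. Over all genes, 464 were lower after median centring and 479 after quantile normalization, and 299 were higher and 370 lower without the mean-variance trend. With voom on recovered reads 723 were higher and 1107 lower. With 1 library left out 145 to 484 genes were higher and 218 to 646 lower, and 1 to 3 members were higher and 1 lower.

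Same-numbered libraries of the 2 ages did not deviate together over all genes (correlations of -0.036, -0.003 and -0.050 over 13117 genes), and the main fit did not pair them. Whether they were prepared together is not in the labels, and these correlations cannot tell. With the replicate block 217 genes were higher and 284 lower, and 1 member, Fbln1, was higher (limma adjusted p of 0.0636 for Fbn1 and 0.0579 for Mfap5). No day 0 library correlated best with the older library of its own number.

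With 1 library left out the log2 difference of Fbn1 over Fbn2 ran from 1.74 to 1.84, of Mfap5 over Mfap2 from 2.28 to 3.08 and of Eln over Fbn1 from -0.89 to -0.08. At a pseudocount of 0.1 Mfap5 over Mfap2 was 3.63, as the smaller pseudocount compresses low values less. Signs turned for genes that did not pass. With 1 library left out the log2 fold change ran from -0.27 to 0.58 for Eln, -0.19 to 0.36 for Fbln2, -0.24 to 0.17 for Mfap2, -0.13 to 0.0204 for Emilin1 and -0.0240 to 0.56 for Lox. It was -0.0154 for Mfap2 with voom, and 0.0701 and 0.0583 for Emilin1 after median centring and quantile normalization. Other causes were not tested. Depth limits Mfap5 and Fbln5 most, at 3 and 61 reads in day 0 replicate 2.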
